A study of Mus musculus with 9 samples.

Results

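This account follows 9 genes of mouse kidney, the annexins Anxa1, Anxa2, Anxa3, Anxa4 and Anxa5 and the S100 genes S100a1, S100a6, S100a10 and S100a11. They were taken as the rows of the count tables whose Ensembl identifier carries these symbols in GENCODE mouse release M21, and all 9 were found among 29678 rows. All 9 also passed the filter on low counts, which left 17967 genes to test.

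RNA was sequenced from whole kidney 24 h after reperfusion in 3 groups. BHBNa_bIRI kidneys received the sodium salt of beta-hydroxybutyrate, a ketone body, before bilateral ischemia-reperfusion injury. bIRI kidneys had the same injury without it, and Sham kidneys were operated on without ischemia. The labels give no strain, sex, age or dose, and they do not tie libraries to separate animals; p-values here reflect the spread among libraries, which may be technical. The table of bIRI replicate 2 held in all 29678 rows the whole-number part of the average of the other two bIRI tables, and it was left out. This left 3 BHBNa_bIRI, 2 bIRI and 3 Sham libraries, with total counts of 44225882 to 45014455 in BHBNa_bIRI, 33477985 and 41204065 in bIRI and 43206974 to 45909063 in Sham.

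Annexins are calcium-dependent proteins that bind the phospholipids of membranes and take part in membrane repair, vesicle traffic and inflammation. S100 proteins are small EF-hand proteins that mostly sense calcium and act by binding other proteins. Some work as pairs with annexins: S100A10, which has lost calcium binding, joins annexin A2 in a heterotetramer at the plasma membrane, and S100A11 binds annexin A1. In kidney, the injured tubule is known for dedifferentiation and remodelling of its membranes and cytoskeleton, processes in which both families have been placed.

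The 4 S100 genes lie on chromosome 3 (GRCm38, the assembly also called mm10). S100a1 (ENSMUSG00000044080, chr3:90511034-90514392, minus strand) and S100a6 (ENSMUSG00000001025, chr3:90612882-90624181, plus strand) are in one stretch. S100a11 (ENSMUSG00000027907, chr3:93520488-93526287) and S100a10 (ENSMUSG00000041959, chr3:93555080-93564643) follow each other on the plus strand. Anxa5 (ENSMUSG00000027712, chr3:36448923-36475894) is on the same chromosome, while Anxa1 (ENSMUSG00000024659) is on chromosome 19, Anxa2 (ENSMUSG00000032231) on chromosome 9, Anxa3 (ENSMUSG00000029484) on chromosome 5 and Anxa4 (ENSMUSG00000029994) on chromosome 6. Their transcripts differ in size by family, with 511 to 731 bases for the S100 genes and 1447 to 2030 bases for the annexins.

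RefSeq promoter windows of GRCm38.p6, from 250 bases before to 50 bases after the annotated start, were on hand for 7 of the 9 genes, all except Anxa3 and S100a10. The windows below are those of 3 genes with large differences from Sham and of S100a1, the gene that differed least between bIRI and Sham. Capitals mark matches, on either strand, to the AP-1 letters TGANTCA and to the TATA letters TATAAA.
S100a6 chr3:90612644-90612943, plus strand: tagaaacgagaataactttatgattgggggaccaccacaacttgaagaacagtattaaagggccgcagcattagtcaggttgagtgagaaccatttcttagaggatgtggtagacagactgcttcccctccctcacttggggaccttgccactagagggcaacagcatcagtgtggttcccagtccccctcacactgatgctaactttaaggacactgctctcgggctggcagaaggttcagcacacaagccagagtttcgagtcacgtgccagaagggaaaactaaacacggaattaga
S100a11 chr3:93520246-93520545, plus strand: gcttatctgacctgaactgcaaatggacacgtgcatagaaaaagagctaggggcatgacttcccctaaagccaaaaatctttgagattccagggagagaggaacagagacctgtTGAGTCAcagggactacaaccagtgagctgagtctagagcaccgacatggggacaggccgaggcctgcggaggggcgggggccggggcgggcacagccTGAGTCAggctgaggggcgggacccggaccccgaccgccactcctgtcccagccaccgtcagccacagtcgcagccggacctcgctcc
Anxa2 chr9:69453433-69453732, plus strand: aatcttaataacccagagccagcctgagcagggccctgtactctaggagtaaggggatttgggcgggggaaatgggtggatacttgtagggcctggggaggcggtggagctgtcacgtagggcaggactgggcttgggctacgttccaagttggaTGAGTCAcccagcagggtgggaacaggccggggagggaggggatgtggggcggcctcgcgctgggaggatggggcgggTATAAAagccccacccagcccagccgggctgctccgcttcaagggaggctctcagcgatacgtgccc
S100a1 chr3:90514281-90514580, minus strand: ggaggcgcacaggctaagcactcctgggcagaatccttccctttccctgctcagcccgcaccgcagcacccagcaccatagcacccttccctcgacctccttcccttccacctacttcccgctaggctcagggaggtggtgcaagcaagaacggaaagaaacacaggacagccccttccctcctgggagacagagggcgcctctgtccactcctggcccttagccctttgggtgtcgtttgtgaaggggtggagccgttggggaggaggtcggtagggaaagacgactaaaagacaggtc

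The S100a11 window held 2 AP-1 matches, starting at -136 and -38 relative to the annotated start, and the Anxa2 window held 1, at -95. Among 32851 promoter windows of this length, 7.81% held such a match. The TATA letters began at -17 in the Anxa2 window and at -32 in the Anxa1 window, and 13.6% of all windows held them. The GC box letters GGGCGG, present in 35.7% of all windows, were found 3 times each in Anxa2 and S100a11 and once in a window of Anxa4, and the TEAD letters GGAATG, present in 14.7%, once in Anxa1. The windows of S100a1, S100a6 and Anxa5 held none of these 4 motifs, and those of Anxa1 and Anxa4 held no AP-1 match. No match shared a base with another. A match of letters is a description of the sequence.

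Levels are given as CPM, read counts relative to library size after TMM scaling (trimmed mean of M-values). Together the 9 genes took 0.486% to 0.496% of all counts in BHBNa_bIRI, 0.392% and 0.226% in bIRI replicates 1 and 3, and 0.0585% to 0.0711% in Sham. The 2 bIRI libraries were far apart, with a root mean square log2 difference over genes of 1.17, against 0.595 to 0.670 between BHBNa_bIRI libraries and 0.508 to 0.602 between Sham libraries. The share of counts from the mitochondrial genome was 24.0% to 30.3% in BHBNa_bIRI, 15.9% in bIRI and 11.2% to 13.3% in Sham. Markers of the kidney were present, with the phosphate transporter gene Slc34a1 at 552 to 720 CPM in BHBNa_bIRI, 535 and 359 CPM in bIRI and 4420 to 5390 CPM in Sham. In whole tissue, fewer cells of a type and less RNA per cell cannot be told apart.

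**Figure D1:**
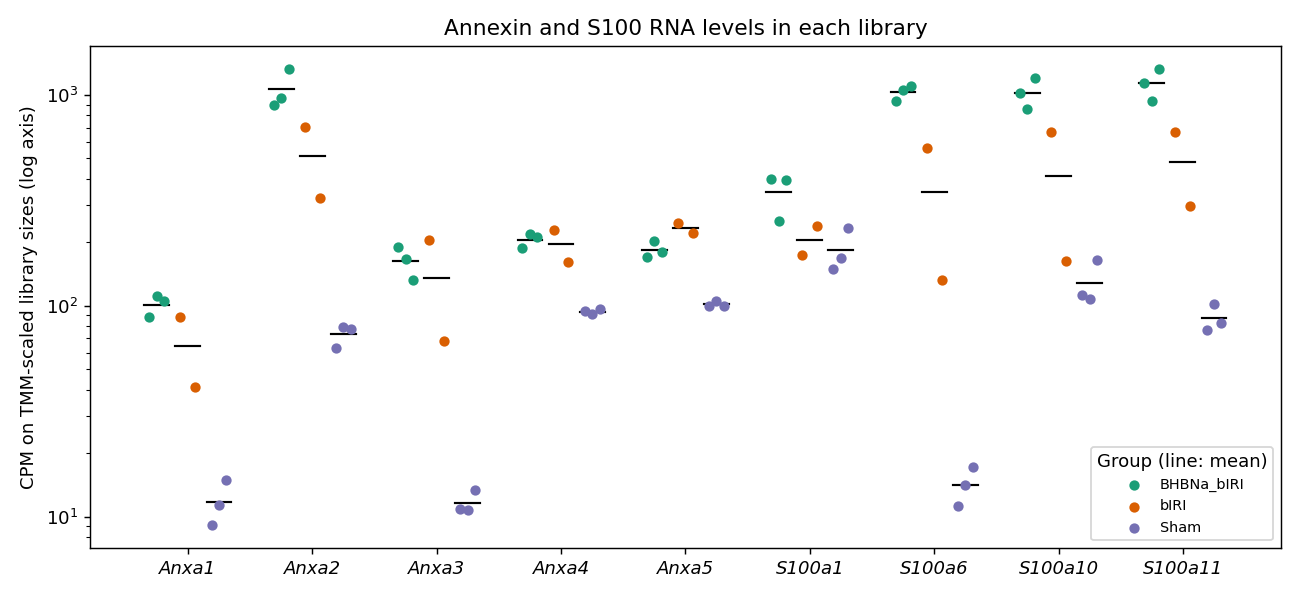
RNA level of each of the 9 genes in every library, in CPM on a log axis, with points for libraries and a line for the group mean (3 BHBNa_bIRI, 2 bIRI and 3 Sham libraries). S100a6 lies at 931 to 1100 CPM in BHBNa_bIRI and at 11.2 to 17.1 CPM in Sham, with the 2 bIRI libraries apart at 562 and 132 CPM, while S100a1 in bIRI overlaps Sham.

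The response to injury itself was read from bIRI against Sham. Of the 9 genes, 8 were higher in bIRI and 0 lower at an adjusted p of 0.05 (edgeR quasi-likelihood test, Benjamini-Hochberg over 17967 genes), where 18.9% of all genes tested were higher and 16.2% lower, or 35.1% in either direction. The median log2 fold change of the 9 was 2.46, against 0.08 over all genes. The S100 genes covered the whole range, with S100a6 at the top and S100a1 not called. Values of the groups did not overlap for 7 of the 9, all higher in bIRI, and 28.7% of all genes tested were higher without overlap.

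S100a6 encodes calcyclin, a small calcium sensor that binds annexins and cytoskeletal proteins. It stood at 562 and 132 CPM in bIRI replicates 1 and 3, against 11.2, 14.1 and 17.1 CPM in Sham replicates 1, 2 and 3. Each bIRI library was above each Sham library, although the bIRI libraries differed from each other more than the Sham libraries did. The fitted rise was 24.6-fold, or 4.62 on the log2 scale (SE 0.51, edgeR adjusted p 0.000281). Without bIRI replicate 1 the log2 rise was 3.16, and without bIRI replicate 3 it was 5.31.

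S100a11, which encodes the annexin A1 partner calgizzarin, was at 666 and 298 CPM in bIRI, against 76.9, 102 and 82.6 CPM in Sham, with no overlap. It rose 5.53-fold, by 2.47 on the log2 scale (SE 0.33, edgeR adjusted p 0.000685), and by 1.70 without bIRI replicate 1. S100a10, the partner of annexin A2, was at 664 and 163 CPM in bIRI, against 113, 108 and 165 CPM in Sham. Here bIRI replicate 3 lay within the Sham range, and the call rested on bIRI replicate 1. S100a10 rose by 1.68 on the log2 scale (SE 0.47, edgeR adjusted p 0.0224) with the 8 libraries. The log2 difference was 0.27 without bIRI replicate 1 (adjusted p 0.419), 2.37 without bIRI replicate 3, 1.59 without Sham replicate 1 (adjusted p 0.0783) and 1.56 without Sham replicate 2 (adjusted p 0.0778).

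S100a1, a calcium sensor best known from heart and skeletal muscle, was at 174 and 238 CPM in bIRI, against 149, 168 and 233 CPM in Sham. The groups overlapped. Its log2 fold change was 0.16 (SE 0.28, 95% interval -0.47 to 0.79, edgeR adjusted p 0.688).

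All 5 annexins rose. Anxa3, of a small annexin tied to phospholipase inhibition and neutrophil granules, had the largest of the 5 rises: it was at 204 and 67.9 CPM in bIRI, against 10.9, 10.7 and 13.4 CPM in Sham. This was a rise of 3.54 on the log2 scale (SE 0.39, edgeR adjusted p 0.000281), or of 2.47 without bIRI replicate 1 and 4.13 without bIRI replicate 3. Anxa2, whose product bridges membranes and actin, was at 701 and 325 CPM in bIRI, against 63.1, 79.1 and 77.3 CPM in Sham, a rise of 7.01-fold (log2 2.81, SE 0.33, edgeR adjusted p 0.00036), and of 2.08 on the log2 scale without bIRI replicate 1. In Anxa2 each bIRI library was several times above the highest Sham library.

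Anxa1 encodes the glucocorticoid-induced anti-inflammatory annexin. It was at 88.3 and 41.2 CPM in bIRI, against 9.14, 11.3 and 14.9 CPM in Sham, and rose 5.50-fold (log2 2.46, SE 0.31, edgeR adjusted p 0.000532), or by 1.74 on the log2 scale without bIRI replicate 1. Anxa4 and Anxa5 rose least of the annexins and were the most even between the bIRI libraries. Anxa4, of an annexin found in epithelia, was at 229 and 162 CPM in bIRI, against 94.3, 91.1 and 96.3 CPM in Sham, a rise of 1.06 on the log2 scale (SE 0.19), and of 0.71 without bIRI replicate 1. Anxa5, of the annexin used to stain exposed phosphatidylserine, was at 248 and 221 CPM in bIRI, against 99.9, 105 and 99.4 CPM in Sham, a rise of 1.21 (SE 0.17).

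**Figure D2:**
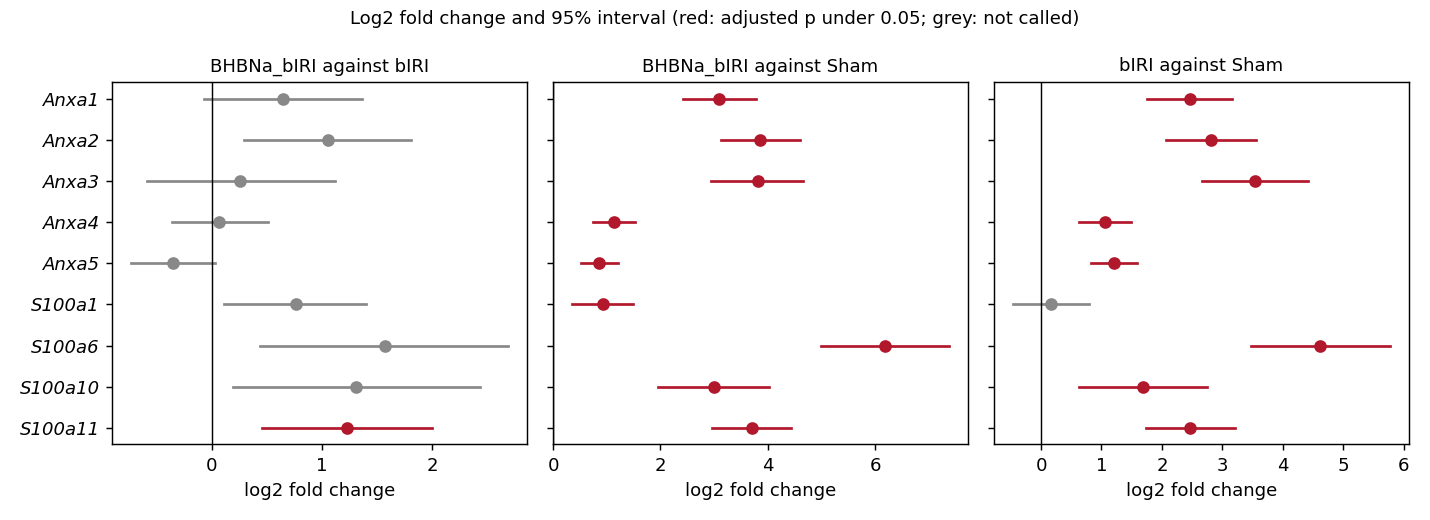
Log2 fold change (points) and 95% interval (lines) of the 9 genes in the 3 comparisons, from edgeR on 8 libraries, with red for an adjusted p under 0.05 and grey for genes not called. In bIRI against Sham 8 genes are called and S100a1, at 0.16, is not; in BHBNa_bIRI against Sham all 9 are called; in BHBNa_bIRI against bIRI S100a11 alone is called, at 1.23.

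The comparison of pretreatment, BHBNa_bIRI against bIRI, asked what pretreatment with beta-hydroxybutyrate changed in the injured kidney. Of the 9 genes, 1 was called higher, S100a11, and 0 lower, where 4.88% of all genes tested were higher and 8.65% lower, or 13.5% in either direction. S100a11 also passed a fold of at least 2, as did 8.73% of all genes in either direction, with 561 genes higher and 1007 lower. DESeq2 called 5 of the 9 higher, and 12.2% of all genes it tested. The median log2 fold change of the 9 was 0.76, against -0.05 over all genes. All 4 S100 genes and Anxa2 lay higher in each BHBNa_bIRI library than in each bIRI library, and 22.2% of all genes did so, while Anxa5 lay lower without overlap, as did 23.8% of all genes.

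S100a11 was at 1140, 938 and 1320 CPM in BHBNa_bIRI replicates 1, 2 and 3, against 666 and 298 CPM in bIRI replicates 1 and 3. The log2 rise was 1.23 (SE 0.34, edgeR adjusted p 0.0452). The call was lost without any 1 of 7 libraries, all except bIRI replicate 1, with log2 values of 0.76 to 1.35, the lowest without bIRI replicate 3, and adjusted p of 0.0625 to 0.138. Without bIRI replicate 1 the log2 value was 1.98 (adjusted p 0.000245).

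S100a6 was at 931, 1050 and 1100 CPM in BHBNa_bIRI, against 562 and 132 CPM in bIRI. Its log2 fold change was 1.57 (SE 0.50, 95% interval 0.44 to 2.69, edgeR adjusted p 0.0642). S100a10 was at 1020, 855 and 1200 CPM in BHBNa_bIRI, against 664 and 163 CPM in bIRI, with a log2 fold change of 1.31 (SE 0.50, edgeR adjusted p 0.1). For both, bIRI replicate 3 was the library far below the rest, and BHBNa_bIRI libraries were close to each other. S100a1 was at 397, 251 and 394 CPM in BHBNa_bIRI, against 174 and 238 CPM in bIRI, with a log2 fold change of 0.76 (SE 0.29, edgeR adjusted p 0.1).

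Anxa2 was at 895, 963 and 1330 CPM in BHBNa_bIRI, against 701 and 325 CPM in bIRI, with a log2 fold change of 1.05 (SE 0.34, 95% interval 0.29 to 1.81, edgeR adjusted p 0.0651). Anxa1, at 88.0, 111 and 105 CPM in BHBNa_bIRI, overlapped bIRI replicate 1 at 88.3 CPM, and its log2 fold change was 0.65 (SE 0.32, edgeR adjusted p 0.179). Anxa3, at 190, 167 and 133 CPM in BHBNa_bIRI, and Anxa4, at 188, 219 and 211 CPM, each lay between the 2 bIRI libraries. Their log2 fold changes were 0.26 (95% interval -0.59 to 1.12) and 0.07 (95% interval -0.36 to 0.51). Anxa5 was at 170, 202 and 180 CPM in BHBNa_bIRI, all below the 248 and 221 CPM of bIRI, with a log2 fold change of -0.35 (SE 0.17, 95% interval -0.73 to 0.03, edgeR adjusted p 0.172).

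The 2 bIRI libraries placed this comparison at different values. When bIRI replicate 3 alone stood for its group, which assumes that it varies like the other groups, 6 of the 9 genes were called higher, as were 21.4% of all genes, with log2 values of 3.01 for S100a6, 2.71 for S100a10 and 1.76 for Anxa2. When bIRI replicate 1 alone stood for its group, 0 of the 9 were called, where 1.38% of all genes were higher, and the same genes were at 0.87, 0.62 and 0.59. Anxa3 was at 1.32 against bIRI replicate 3 and at -0.33 against bIRI replicate 1.

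Transcript length went with the values of this comparison. Genes with transcripts under 1000 bases, which include all 4 S100 genes, had a median log2 fold change of 0.65 with quartiles of -0.23 and 1.25, and 13.4% of these 2149 genes were called higher. Genes from 1000 to under 2500 bases, which include the 5 annexins, had a median of 0.24, and genes of 2500 bases or more a median of -0.27. S100a1 at 0.76 and S100a11 at 1.23 lay within the quartiles of the short transcripts, while S100a10 at 1.31 and S100a6 at 1.57 lay above them. When offsets removed the trend of every library in length and GC content, 0 of the 9 genes were called, and 2 genes in all, both lower. The log2 values were then 0.80 for S100a6, 0.62 for S100a10, 0.58 for Anxa2, 0.44 for S100a11 (adjusted p 0.232) and -0.34 for S100a1, and Anxa5 was at -0.65 (adjusted p 0.0578).

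**Figure D3:**
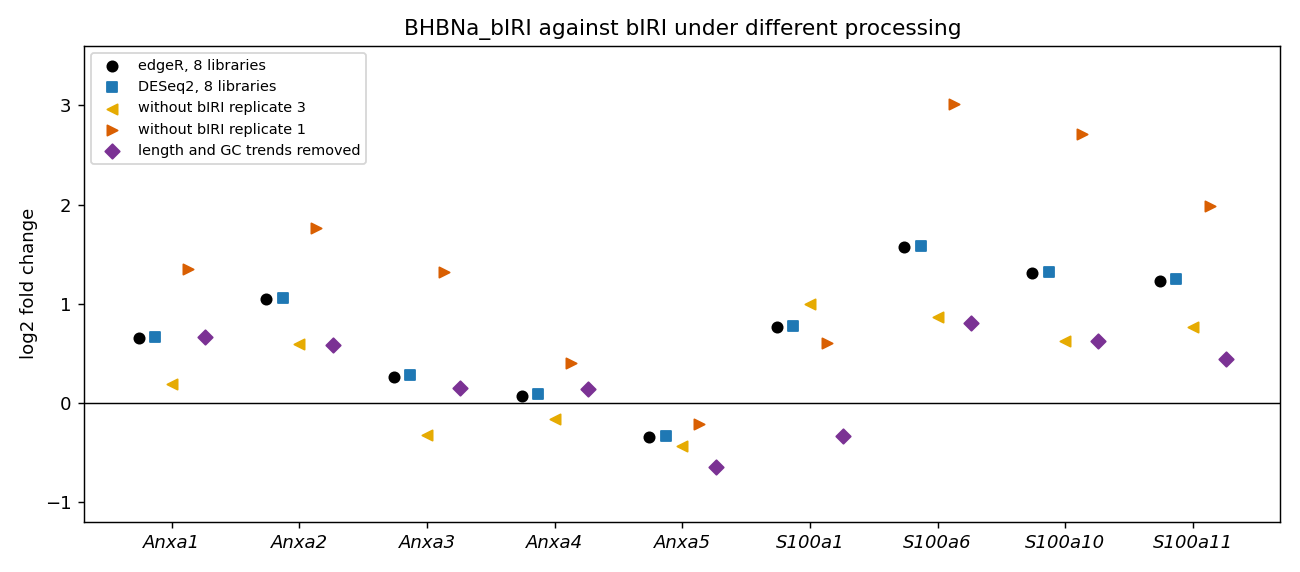
Log2 fold change of BHBNa_bIRI against bIRI for each of the 9 genes under 5 ways of processing, marked by symbol. For S100a6 the values run from 0.80 with length and GC trends removed to 3.01 without bIRI replicate 1, and S100a1 moves from 0.76 to -0.34 when those trends are removed.

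**Figure D4:**
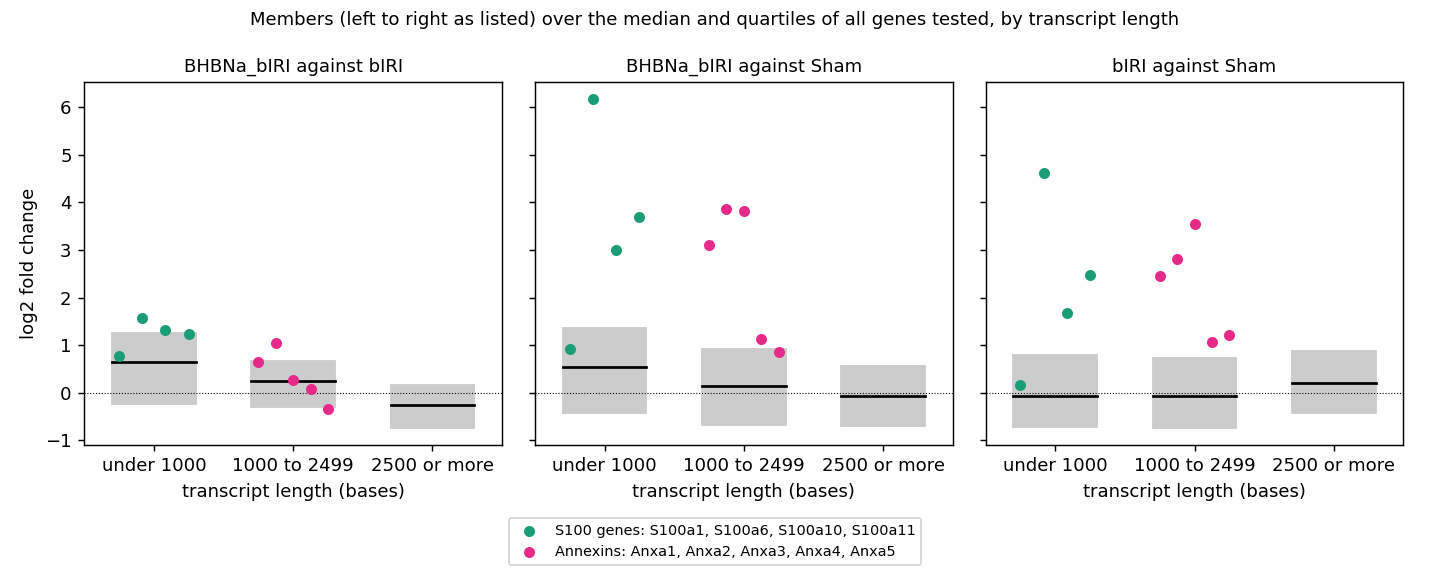
Log2 fold change of the 9 genes (points) over the median (line) and quartiles (grey box) of all genes tested, by transcript length in bases, in each comparison. In BHBNa_bIRI against bIRI the S100 genes lie in or just above the box of the short transcripts, whose median is 0.65, while in both comparisons with Sham S100a6 lies far above its box.

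BHBNa_bIRI was also set against Sham, a comparison that shares its Sham libraries with that of bIRI and its BHBNa_bIRI libraries with that of pretreatment. All 9 genes were higher in BHBNa_bIRI at an adjusted p of 0.05 and none of the 9 had overlapping groups, where 21.3% of all genes tested were called higher and 22.2% lower, or 43.6% in either direction, and 32.6% were higher without overlap. S100a6 rose 72.7-fold (log2 6.18, SE 0.53, edgeR adjusted p 4.25e-05), at 1030 ± 88.3 CPM in BHBNa_bIRI against 14.1 ± 2.96 CPM in Sham (SD, n = 3 each). Anxa2 rose 14.5-fold (log2 3.86, SE 0.33), at 1060 ± 233 CPM in BHBNa_bIRI against 73.2 ± 8.76 CPM in Sham. S100a11 rose 13-fold (log2 3.70, SE 0.33), at 1130 ± 192 CPM in BHBNa_bIRI against 87.2 ± 13.3 CPM in Sham.

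Anxa3 rose by 3.81 on the log2 scale (SE 0.38), Anxa1 by 3.10 (SE 0.30) and S100a10 by 2.99 (SE 0.46). The smaller rises were those of Anxa4, by 1.13 (SE 0.18), and Anxa5, by 0.86 (SE 0.15), at 184 ± 16.4 CPM in BHBNa_bIRI against 101 ± 3.12 CPM in Sham. S100a1 rose by 0.92 (SE 0.25, edgeR adjusted p 0.0167), at 347 ± 83.6 CPM in BHBNa_bIRI against 184 ± 43.9 CPM in Sham. Its call was the least steady of the 9. It was lost without Sham replicate 1 (log2 0.79), Sham replicate 2 (0.84), BHBNa_bIRI replicate 1 (0.81) or BHBNa_bIRI replicate 3 (0.82), with adjusted p of 0.0601 to 0.0779. With length and GC trends taken out S100a1 was at 0.31 (edgeR adjusted p 0.362), while S100a6 was at 5.62, S100a11 at 3.10 and S100a10 at 2.5.

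To compare genes with each other, CPM was divided by transcript length in kilobases. S100a11 had the highest mean, at 2220 CPM per kb in BHBNa_bIRI and 944 in bIRI. S100a10, at 1500 in BHBNa_bIRI and 604 in bIRI, came next, then S100a6, at 1400 in BHBNa_bIRI and 475 in bIRI, and Anxa2, at 734 in BHBNa_bIRI and 355 in bIRI. In bIRI the library ranges of all neighbours in this order overlapped, and the order by means was not that of bIRI replicate 3, where S100a1 at 351 came after S100a11 at 584, and Anxa2 at 225 was above S100a6 at 181. In BHBNa_bIRI the ranges of S100a10 and S100a6 overlapped. In Sham the order was another. S100a1 came first with 221 to 344 CPM per kb, S100a10 next with 158 to 241 and S100a11 next with 150 to 200, and these ranges overlapped between neighbours, while S100a6 was at 15.3 to 23.4. Anxa5 at 57.4 to 60.7, Anxa2 at 43.6 to 54.7 and Anxa4 at 44.9 to 47.4 CPM per kb were in the middle, where Anxa2 and Anxa4 overlapped, and Anxa3 at 6.73 to 8.38 and Anxa1 at 5.46 to 8.88 were lowest and overlapped as well.

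The ratio of S100a10 to its partner Anxa2, per kilobase, needs no library scaling. It was 2.40, 1.87 and 1.92 in BHBNa_bIRI, 2 and 1.06 in bIRI replicates 1 and 3, and 3.79, 2.89 and 4.52 in Sham. Every library after injury lay below every Sham library. The ratio was not adjusted for trends in length and GC content, and the transcripts differ in length, with 685 bases for S100a10 and 1447 for Anxa2. The ratio of S100a6 to S100a1 was 2.17 to 3.87 in BHBNa_bIRI, 3 and 0.515 in bIRI replicates 1 and 3, and 0.0680 to 0.0776 in Sham.

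Other members of both families did not all move this way. Of the 7 other annexins, all tested, 3 were higher and 1 lower in bIRI against Sham, with a median log2 fold change of 0.56. Over all genes tested, 18.9% were higher and 16.2% lower. Anxa8 rose by 3.49 (SE 0.46), at 4.4 and 9.38 CPM in bIRI against 0.447 to 0.708 CPM in Sham, and Anxa6, which has a doubled annexin core, by 0.65 (SE 0.16). Anxa13, an annexin of epithelia, fell by 2.61 (SE 0.38), to 0.657 and 0.916 CPM in bIRI against 3.40 to 5.79 CPM in Sham. Anxa10 was called higher with at most 0.350 CPM in any library and no counts in Sham. Anxa7, Anxa9 and Anxa11 were not called. In BHBNa_bIRI against bIRI edgeR called 0 of the 7 and 13.5% of all genes. DESeq2 called 1 of the 7, and 4507 of the 16558 genes it tested. In BHBNa_bIRI against Sham 3 were higher and 1 lower, beside 21.3% and 22.2% of all genes.

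Of the 12 other S100 genes listed, 9 were tested. In bIRI against Sham 5 rose and 0 fell, with a median of 3.28, where 18.9% of all genes were higher and 16.2% lower. S100a14 rose by 4.31 (SE 0.45), at 10.4 and 7.98 CPM in bIRI against 0.274 to 0.724 CPM in Sham. The calprotectin genes, abundant in neutrophils, rose as well, S100a8 by 3.28 (SE 0.65) and S100a9 by 3.61 (SE 0.65), and S100a3 and S100a7a rose with levels under 1 CPM in each bIRI library. S100g, the calbindin-D gene of the distal nephron that is abundant in kidney, had 490 and 201 CPM in bIRI and 427 to 675 CPM in Sham (log2 -0.63, SE 0.42, edgeR adjusted p 0.272). BHBNa_bIRI against bIRI had 4.88% of all genes called higher, and 13.4% of genes with transcripts under 1000 bases. Of the 9 S100 genes, 3 rose. These were S100a8, with 10.7, 18.3 and 14 CPM in BHBNa_bIRI against 2.95 and 0.611 CPM in bIRI, by 3.01 (SE 0.61), S100a9 by 2.57 (SE 0.61) and S100a13, with 63.8, 46.9 and 83.1 CPM in BHBNa_bIRI against 36.2 and 24.1 CPM in bIRI, by 1.10 (SE 0.29). None of these 3 was called once length and GC trends were taken out. That setting left 2 calls over all genes, both lower, so the loss is not particular to these 3. In BHBNa_bIRI against Sham 7 of the 9 rose and 0 fell, where 21.3% of all genes were higher and 22.2% lower.

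Among 21 genes of binding partners, membrane repair, plasminogen activation and receptors, 12 were higher in bIRI than in Sham and 0 lower. Their median log2 fold change was 1.29. Shares over all genes tested were 18.9% higher and 16.2% lower. Plaur, the urokinase receptor gene, rose by 3.72 (SE 0.32), at 107 and 44.7 CPM in bIRI against 5.41 to 6.07 CPM in Sham. The membrane repair genes Myof, Ahnak and Dysf rose by 2.82 (SE 0.23), 2.05 (SE 0.18) and 1.38 (SE 0.18), where Ahnak encodes a large scaffold of the annexin A2 and S100A10 complex. Trpv6, a calcium channel gene whose product binds S100A10, rose by 2.32 (SE 0.23), at 7.42 and 7.33 CPM in bIRI against 1.28 to 1.59 CPM in Sham, and Capn2, a calpain gene, by 1.29 (SE 0.21). In BHBNa_bIRI against bIRI edgeR called 0 of the 21 and 13.5% of all genes. DESeq2 called 4 of the 21, and 4507 of the 16558 genes it tested. In BHBNa_bIRI against Sham 15 were higher and 2 lower, beside 21.3% and 22.2% of all genes. The 2 lower ones were Plg, with levels under 0.6 CPM, and Trpv5, a calcium channel gene of the distal tubule, which fell by 1.06 (SE 0.26).

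Lists of cell markers differed in direction, some higher after injury, some lower and some overlapping Sham. Their part in the results for the 9 genes was not tested. Sums of CPM over a marker list are given for bIRI replicates 1 and 3 in that order. For the counts called, the shares over all genes were 18.9% higher and 16.2% lower in bIRI against Sham. They were 4.88% higher and 8.65% lower in BHBNa_bIRI against bIRI. The 11 markers of injured epithelium summed to 17200 to 19200 CPM in BHBNa_bIRI, 27700 and 17100 CPM in bIRI and 779 to 924 CPM in Sham, with 10 of 11 higher in bIRI against Sham and 2 of 11 higher in BHBNa_bIRI against bIRI. Without Spp1, the most abundant of them, the sums were 7280 to 8800 CPM in BHBNa_bIRI, 8180 and 3460 CPM in bIRI and 396 to 536 CPM in Sham. Fibroblast and pericyte markers summed to 684 to 855 CPM in BHBNa_bIRI, 804 and 307 CPM in bIRI and 218 to 266 CPM in Sham, with 3 of 6 higher in bIRI against Sham. Without Acta2 the sums were 316 to 445 CPM in BHBNa_bIRI, 400 and 232 CPM in bIRI and 165 to 186 CPM in Sham. Macrophage and monocyte markers summed to 184 to 220 CPM in BHBNa_bIRI, 135 and 113 CPM in bIRI and 111 to 184 CPM in Sham, with 2 of 8 higher and 1 lower in bIRI against Sham. Of 6 neutrophil markers 3 were tested, of which 2 were higher in bIRI against Sham and 1 in BHBNa_bIRI against bIRI. Their sum was 11 to 22 CPM in BHBNa_bIRI, 4.97 and 2.14 CPM in bIRI and 0.753 to 1.02 CPM in Sham. Ly6g had at most 0.117 CPM in BHBNa_bIRI and no counts in bIRI or Sham, and Mpo had counts in bIRI replicate 1 alone, at 0.0438 CPM.

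Proximal tubule markers summed to 22300 to 35600 CPM in BHBNa_bIRI, 24800 and 9500 CPM in bIRI and 35800 to 56200 CPM in Sham, with 8 of 9 lower in bIRI against Sham. Kap, the marker not called, made up most of each sum, and the other 8 summed to 1610 to 1780 CPM in BHBNa_bIRI, 1430 and 1290 CPM in bIRI and 11700 to 13100 CPM in Sham. Thick limb and distal markers summed to 356 to 924 CPM in BHBNa_bIRI, 1680 and 4580 CPM in bIRI and 2160 to 3690 CPM in Sham, with 3 of 5 lower in BHBNa_bIRI against bIRI. Without Umod the other 4 summed to 137 to 160 CPM in BHBNa_bIRI, 272 and 1720 CPM in bIRI and 747 to 1270 CPM in Sham. Collecting duct markers summed to 757 to 875 CPM in BHBNa_bIRI, 495 and 1070 CPM in bIRI and 830 to 949 CPM in Sham, and without Aqp2 to 211 to 329 CPM in BHBNa_bIRI, 203 and 454 CPM in bIRI and 610 to 627 CPM in Sham. Endothelial markers summed to 363 to 639 CPM in BHBNa_bIRI, 628 and 385 CPM in bIRI and 475 to 524 CPM in Sham, and podocyte markers to 394 to 557 CPM in BHBNa_bIRI, 697 and 339 CPM in bIRI and 454 to 593 CPM in Sham, so that the ranges of all 3 groups overlapped. T and B cell markers summed to 1.07 to 2.07 CPM in BHBNa_bIRI, 0.941 and 1.53 CPM in bIRI and 3.01 to 4.70 CPM in Sham. Mesothelial and urothelial markers summed to 49.3 to 102 CPM in BHBNa_bIRI, 47.3 and 104 CPM in bIRI and 25.1 to 31.7 CPM in Sham.

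Over the 8 libraries the members followed each other unevenly, as a description of libraries in 3 groups. Pearson's r of log2 CPM with Anxa2 was 0.997 for S100a6, 0.995 for S100a11, 0.991 for Anxa1 and 0.943 for S100a10, but 0.848 for Anxa5 and 0.700 for S100a1. S100a1 and Anxa5 had an r of 0.345 with each other, the lowest of any pair. Among 10926 other genes with a mean of at least 5 CPM, the 3 most like Anxa2 were Procr, Ercc1 and Col1a1 (r 0.996 to 0.997), and those most like S100a6 were Ercc1, Znrf1 and Cldn4 (r 0.996 to 0.997). For S100a10 they were Snrpa1, Med10 and Plekho1 (r 0.997 to 0.998), and for S100a11 Serinc2, 2200002D01Rik and Msl1 (r 0.993 to 0.996). Anxa1 was nearest to Set, Ercc1 and Slc31a2, Anxa3 to Csf1, Plaur and Btg1, Anxa4 to Fblim1, Tubb2a and Pdlim1, and Anxa5 to Tert, Calcrl and Filip1l, with r of 0.991 to 0.998. S100a1 stood with other genes, Polr2j, Ndufa3 and Josd2, at r of 0.981 to 0.990.

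Reads of S100a11 may be shared with near copies, so its values are uncertain to that extent. In GENCODE transcripts, 5 other genes matched its transcript over at least 200 bases at 90% identity or more, and 2 of them had rows in the count tables, Gm7665 with 96 to 1589 counts and Gm12854 with 40 to 495, against 3093 to 48875 counts for S100a11. No other member had such a copy. Gm16144, antisense to Anxa2, had 0 to 22 counts, and Gm44036, which overlaps Anxa4 on the other strand, 0 to 5. The strand setting of the counting is not given in the sources used here.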

How the data were processed

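Poly(A)-selected RNA of mouse kidney was sequenced in 9 libraries. The deposited values are raw read counts per gene; per the submitters' processing notes, HISAT2, featureCounts of Subread and DESeq2 were used with mm10, and versions, annotation and strand setting are not given in the sources used here. Symbols came from GENCODE M21, which named 29220 of 29678 identifiers, and transcript length was that of the longest coding transcript. From the 8 libraries kept, genes passing filterByExpr were fitted with edgeR 4.0.16 in R 4.3.3, with TMM factors, a quasi-likelihood model with robust dispersion, 1 mean per group and 5 residual degrees of freedom. Tests were two-sided, and p-values were adjusted over all 17967 genes within each comparison. The standard error was the log2 fold change over the square root of F, and intervals are at 95%. The lowest count of a member was 368, so the spread between libraries, not counting error, limits precision. The code was run on simulated data as a check of its arithmetic, not of its power to find small changes.

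The members, gene lists and tests were chosen with earlier results of these data known. The text names the 9 members, up to 6 called genes per list and comparison, and the 3 genes nearest each member by Pearson's r of log2 CPM (prior count 2); further genes of the lists, such as Anxa7, Anxa9, Anxa11, S100g, Ly6g and Mpo, were named, and marker sums without the most abundant gene added, after the values were seen. Alternatives were DESeq2 1.42.0, other scaling factors and filters, fits of the compared groups or of all 9 tables, a block for the replicate number, calls restricted to a fold of at least 2, each library left out, and offsets for trends in length and GC content (natural splines with 5 degrees of freedom, fitted where mean log2 CPM exceeded 1).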

Additional observations from a re-analysis of the deposited data

How the results depend on the processing

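Under the alternatives run, bIRI against Sham kept 7 or 8 of the 9 genes called, and BHBNa_bIRI against Sham 7 to 9. In the fit reported, 35.1% of all genes were called in bIRI against Sham and 43.6% in BHBNa_bIRI against Sham. Shares for BHBNa_bIRI against Sham under the alternatives are not given here. The fit of all 9 tables takes in bIRI replicate 2, which is the average of bIRI replicates 1 and 3. That table adds no measurement and narrows the spread within bIRI. The number of the 9 genes called in BHBNa_bIRI against bIRI depended on the processing. It was 1 of 9 in the fit reported, 5 with DESeq2, 3 without a filter, 5 with all 9 tables, 0 with length and GC offsets and 0 with the compared groups only, and 0 to 6 without each library in turn. Over all genes this comparison gave 2431 calls, 4507 with DESeq2, 5847 with all 9 tables, 1568 at a fold of at least 2, 2 with length and GC offsets, 1 with the compared groups only, and 0 to 8381 without each library in turn. Without a filter the calls over all genes were 3525. The share of calls that were higher was 36.0% in the fit reported and 0% with the offsets. bIRI against Sham gave 6303 calls over all genes, and 4180 to 9064 without each library in turn. With the replicate block, BHBNa_bIRI against bIRI gave 0 calls over all genes and 0 of 9 members, likewise 0 and 0 with the block and the length and GC offsets together; S100a10 in bIRI against Sham was at 1.42 (adjusted p 0.104). The 7 same-numbered pairs of libraries correlated at -0.21 to 0.09, and differently numbered pairs at -0.17 to 0.21. Values with bIRI replicates 1 and 3 were equal with opposite sign, such as 0.21 and -0.21 for Sham replicate 3, so the pairs are not independent. Whether the numbers pair the samples was not tested beyond these values. Directions turned for S100a1 in bIRI against Sham without bIRI replicate 3 (-0.08), and in BHBNa_bIRI against bIRI for Anxa3 (-0.33) and Anxa4 (-0.16) without bIRI replicate 3 and for S100a1 with the offsets (-0.34) and with block and offsets (-0.20). Without each library in turn these values ran from -0.08 to 0.37 for S100a1 in bIRI against Sham, and in BHBNa_bIRI against bIRI from -0.33 to 1.32 for Anxa3 and from -0.16 to 0.4 for Anxa4. The cause was not tested. With 2 bIRI libraries that differ widely, the data limit what the comparison of BHBNa_bIRI with bIRI can show.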

Other observations

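Some further S100 genes and 1 annexin receptor gene were measured at low levels. A floor of 3 counts was 0.0646 to 0.0815 CPM and covers counting error only. S100a3 was at 1.61, 0.969 and 1.66 CPM in BHBNa_bIRI, 0.985 and 0.262 CPM in bIRI, and at most 0.0457 CPM in Sham. S100a7a was at 0.388 to 0.676 CPM in BHBNa_bIRI, 0.306 and 0.523 CPM in bIRI, and at most 0.0517 CPM in Sham. S100a4, S100a5 and S100z were removed by the filter on low counts, with S100a4, known from fibroblasts and leukocytes, at 0.0932 to 0.237 CPM in BHBNa_bIRI and at most 0.0438 CPM in bIRI and Sham. Fpr2 is a receptor gene of annexin A1 on myeloid cells. It was at 1.21, 2.09 and 1.11 CPM in BHBNa_bIRI, 0.372 and 0.240 CPM in bIRI, and 0.149 to 0.853 CPM in Sham. Its difference between BHBNa_bIRI and bIRI was not called (log2 2.26, SE 0.74, edgeR adjusted p 0.0671).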
